A study of Mus musculus with 8 samples.

Results

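The replication-dependent histone genes of the mouse were examined for peaks of 3 chromatin factors in kidney cortex. They are 67 of the 21631 protein-coding genes annotated on the autosomes and the X chromosome, chosen by symbol (H1f, H2ac, H2bc, H3c or H4c followed by a digit, or the older Hist1h, Hist2h and Hist3h names) in the RefSeq annotation of GRCm38. The rule used no measured value. By histone type there were 10 H1, 17 H2A, 16 H2B, 12 H3 and 12 H4 genes. By place, 53 lay in the Hist1 cluster on chromosome 13, 10 in the Hist2 cluster on chromosome 3, and 4 H1 genes lay elsewhere. Those 4 are not replication-dependent genes of a cluster: H1f0 and H1f10 encode replication-independent linker histones, H1f7 a linker histone of spermatids and H1f8 that of oocytes. No current symbol of the Hist3 cluster matched the rule.

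Chromatin came from kidney cortex of mice aged 2 months with the genotype Mta2flx/flx, which every group shares, the Input included. The labels name no Cre driver for these mice. The cortex holds many cell types, so fewer cells with a factor at a gene and weaker binding per cell cannot be told apart. Antibodies against Mta2, Mbd3 and Zbtb7a gave 2 libraries each, beside 2 of Input, and 1 peak list per factor stands for both mice. No value per mouse was analysed, so no SD or n accompanies a fold, and no p-value is given. Peaks in all 3 lists had a −log10 q of at least 1.3, and the lists held 149855 (Mta2), 134248 (Mbd3) and 124616 (Zbtb7a) peaks. As a check of the tissue, 10 of 10 kidney cortex genes such as Lrp2 and Aqp1 carried all 3 factors, with a median Mta2 fold of 23.2. So did 4 of 4 genes of other organs such as Alb and Ins2, with a median Mta2 fold of 6.29. Presence of a peak therefore did not separate these lists.

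Replication-dependent histone genes supply the core histones H2A, H2B, H3 and H4 and the linker histone H1 that package new DNA in S phase. They are short, mostly lack introns, lie in dense clusters, and many H2A and H2B genes are transcribed away from each other from a shared promoter. Their transcripts end in a stem-loop in place of a poly(A) tail, and the adult kidney cortex holds few dividing cells. Mta2 and Mbd3 are subunits of NuRD, which remodels nucleosomes and removes acetyl groups from histones, and Zbtb7a is a zinc finger protein that can recruit NuRD.

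Letters before the start are shown for the genes on which the results turn, from RefSeq for GRCm38.p6, read in the direction of the gene. Of the 67 genes, 62 had an entry. Capitals mark the letters of 5 motifs on either strand. These are the CCAAT box, the TATA box in the form TATAAA, and ATTTGCA, the core of the octamer known from H2B promoters. The others are AAACACA, known from H1 promoters, and GACCC, letters found in sites of Zbtb7a. H2ac18 (chr3:96245247-96245496, plus strand) and H2ac19 (chr3:96240375-96240624, minus strand) carried the highest Mbd3 folds of all histone genes, and their letters before the start are 71.0% identical.
H2ac18: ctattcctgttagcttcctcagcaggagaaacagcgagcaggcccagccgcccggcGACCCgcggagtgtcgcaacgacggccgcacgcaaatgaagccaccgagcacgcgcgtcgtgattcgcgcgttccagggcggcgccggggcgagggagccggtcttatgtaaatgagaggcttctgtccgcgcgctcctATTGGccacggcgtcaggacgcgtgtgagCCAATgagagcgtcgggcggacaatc
H2ac19: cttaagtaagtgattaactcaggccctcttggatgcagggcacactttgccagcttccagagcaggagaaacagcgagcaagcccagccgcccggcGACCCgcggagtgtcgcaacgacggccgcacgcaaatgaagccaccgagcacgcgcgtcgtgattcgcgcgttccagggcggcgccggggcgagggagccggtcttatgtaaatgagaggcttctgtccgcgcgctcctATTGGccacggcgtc
H4c8 (chr13:23530794-23531043, plus strand) had the highest Zbtb7a fold of the Hist1 cluster, in a peak over these letters.
H4c8: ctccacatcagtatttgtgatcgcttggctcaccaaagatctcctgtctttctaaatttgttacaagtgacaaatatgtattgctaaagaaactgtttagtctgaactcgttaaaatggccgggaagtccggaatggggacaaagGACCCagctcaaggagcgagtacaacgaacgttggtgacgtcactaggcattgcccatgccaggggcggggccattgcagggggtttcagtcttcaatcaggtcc
H1f4 (chr13:23622559-23622808, minus strand) had the highest Mta2 and Mbd3 folds among H1 genes of the cluster, while H1f6 (chr13:23695561-23695810, plus strand), a testis gene, had no summit.
H1f4: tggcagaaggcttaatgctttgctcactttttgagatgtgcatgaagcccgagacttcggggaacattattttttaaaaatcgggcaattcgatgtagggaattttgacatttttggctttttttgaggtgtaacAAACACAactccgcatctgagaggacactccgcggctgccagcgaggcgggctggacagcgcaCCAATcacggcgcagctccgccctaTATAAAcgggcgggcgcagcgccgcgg
H1f6: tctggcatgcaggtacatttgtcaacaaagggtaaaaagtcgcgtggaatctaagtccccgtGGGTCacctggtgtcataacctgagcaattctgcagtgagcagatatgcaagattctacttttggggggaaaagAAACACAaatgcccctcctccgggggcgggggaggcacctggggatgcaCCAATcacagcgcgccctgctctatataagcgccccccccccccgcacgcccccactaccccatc
The whole stretch between the starts of H2bc23 and H2ac23 (chr13:21810200-21810366, plus strand) held the Mta2 and Mbd3 summits of that pair, and the letters before H2ac1 (chr13:23934187-23934436, plus strand), whose partner is H2bc1, held none.
H2ac23: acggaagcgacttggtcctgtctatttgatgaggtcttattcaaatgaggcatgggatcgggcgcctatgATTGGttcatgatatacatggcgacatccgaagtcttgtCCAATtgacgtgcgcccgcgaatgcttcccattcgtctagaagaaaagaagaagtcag
H2ac1: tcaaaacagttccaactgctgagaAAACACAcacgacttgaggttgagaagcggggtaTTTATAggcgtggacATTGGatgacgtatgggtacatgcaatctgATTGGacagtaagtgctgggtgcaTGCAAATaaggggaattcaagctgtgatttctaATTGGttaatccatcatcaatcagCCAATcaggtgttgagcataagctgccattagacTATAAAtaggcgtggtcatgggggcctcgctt

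At the threshold of the deposited lists most histone genes carried all 3 factors, and with peaks of at least 5-fold most did not. A gene was counted for a factor when a summit, the highest point of a peak, lay in the gene or within 1 kb of its ends. Mta2 was present at 61 of 67 genes (91.0%), against 77.7% of all protein-coding genes. Mbd3 was present at 60 (89.6%), against 76.5% of all protein-coding genes. Zbtb7a was present at 58 (86.6%), against 76.0% of all protein-coding genes. All 3 were present at 55 (82.1%, against 74.7%) and none at 4 (5.97%, against 21.2%). With peaks of at least 5-fold, Zbtb7a was present at 21 of 67, against 68.2% of all protein-coding genes. All 3 factors were then present at 19, against 66.4%, and none at 9, against 27.4%. Mbd3 was present at 55 of 67 and Mta2 at 41 of 67. Shares over all genes at that threshold are not given for these 2 factors singly. Each is at least the 66.4% found for all 3 together. A long gene has more room for a summit, and histone genes are short. Of protein-coding genes of 2 kb or less, histone genes included, 21.1% carried Mta2, 20.3% Mbd3, 20.0% Zbtb7a, 18.9% all 3 and 77.9% none. Of the 60 histone genes of that length, 55 carried Mta2, 54 Mbd3, 52 Zbtb7a, 49 all 3 and 3 none. This comparison was matched by length only. The short genes include the 36 vomeronasal receptor genes in the span of Hist1, none of which carried a summit. Shares of short genes without receptor genes are not given. Histone genes also lie so close together that a summit can serve several of them. The 61 genes with Mta2 shared 58 Mta2 peaks, 19 of which served more than 1 gene and at most 3. For Mbd3 there were 59 peaks, 20 of them shared, and for Zbtb7a 57 peaks, 22 of them shared. The counts of genes are thus not counts of independent sites, and no test over genes was made.

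**Figure D1:**
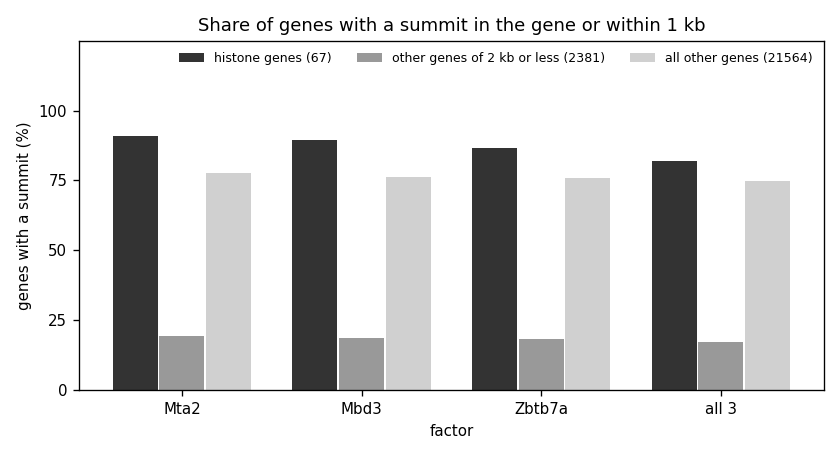
Bars give the percentage of genes with a summit in the gene or within 1 kb of it, for each factor and for all 3 together, in histone genes (67), other genes of 2 kb or less (2381) and all other protein-coding genes (21564). Histone genes stand at 82.1% to 91.0%, other short genes at 17.3% to 19.3% and all other genes at 74.7% to 77.6%. The other short genes include receptor genes and were not matched to histone genes by gene family.

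Peaks at histone genes were then placed by strength within each list. The fold of a peak is the authors' own value, a ratio of signal over background at the summit, and it is read here only within its list. For each occupied gene the peak of highest fold was taken. In the Mta2 list the median over occupied histone genes was 5.78 (range 2.01 to 52.6), against 16.9 over all other occupied genes and 11.5 over other occupied genes of 2 kb or less. In the Mbd3 list it was 10.6 (3.32 to 69.0), against 15.4 over all other genes and 10.8 over other short ones. In the Zbtb7a list it was 3.49 (1.92 to 40.5), against 16.2 over all other genes and 10.0 over other short ones. As a place among all occupied genes of the same list, the median histone gene stood at percentile 10.2 for Mta2, 29.7 for Mbd3 and 4.36 for Zbtb7a. By their strongest peaks histone genes thus sat low among occupied genes in the Mta2 and Zbtb7a lists, and in the Mbd3 list their median was near that of other short genes. Against all peaks of a list the place was different. The 58 Mta2 peaks at histone genes had a median fold of 5.49, against 5.21 over the whole list. The 59 Mbd3 peaks had 9.14, against 5.02, and the 57 Zbtb7a peaks 3.44, against 5.00. These are descriptions of single lists, and folds of different antibodies are not set against each other.

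H4 genes, whose product pairs with H3 at the centre of the nucleosome, were occupied by Mta2 and Mbd3 at 12 of 12 and by Zbtb7a at 11 of 12. Their median folds were 7.82 (Mta2), 14.2 (Mbd3) and 6.13 (Zbtb7a). Mta2 folds ran from 3.16 at H4c17 to 14 at H4c1. Mbd3 folds ran from 5.94 at H4c11 to 29.4 at H4c3. Zbtb7a folds ran from 2.77 at H4c12 to 16.7 at H4c8, whose folds in the other lists were 11.4 (Mta2) and 25.7 (Mbd3). At H4c8 the summits lay at -21 (Mta2), -36 (Mbd3) and -32 bp (Zbtb7a) from the start, where minus means before it, in the letters printed above. The copies H4c17 and H4c18 are 99.2% identical over the 250 bases before the start. They had Mta2 folds of 3.16 and 5.12, Mbd3 folds of 9.04 and 14.2 and Zbtb7a folds of 3.51 and 3.14. The H4c17 Zbtb7a summit lay 885 bp after the start, beyond the gene, and that of H4c18 33 bp after it. Of the 50-letter words around each of these starts, 94.0% also stood at another tabulated start. How reads that match both copies were placed is not given in the sources used here, and its part in these folds was not tested.

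H3 genes carried Mta2 at 11 of 12, Mbd3 at 10 and Zbtb7a at 12. Their median folds were 5.78, 8.10 and 3.45 in the Mta2, Mbd3 and Zbtb7a lists. H3c14 of the Hist2 cluster was highest in each list, at 20.7, 27.2 and 20. The lowest folds were 2.94 at H3c3 for Mta2, and 4.05 and 2.32 at H3c4 for Mbd3 and Zbtb7a. H3c14 shares its Mta2 peak and its Zbtb7a peak with H2ac18, its neighbour.

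H2A and H2B genes, whose products form dimers in the nucleosome, had similar counts and median folds, and many of them share peaks. Mta2 and Mbd3 were each present at 16 of 17 H2A genes and 15 of 16 H2B genes, and Zbtb7a at 15 and 13. Median folds for H2A were 5.22 (Mta2), 11 (Mbd3) and 3.28 (Zbtb7a), and for H2B 4.86, 9.37 and 3.25 in the same lists. Among H2A genes H2ac18 was highest in all 3 lists, at 20.7 for Mta2, 69.0 for Mbd3 and 20 for Zbtb7a. Lowest were H2ac8 for Mta2 (2.01) and H2ac10 for Mbd3 (4.98) and Zbtb7a (1.92). Among H2B genes the highest were H2bc12 for Mta2 (12.2), H2bc4 for Mbd3 (32.15, a peak it shares with H2ac6) and H2bc21 for Zbtb7a (6.98). Lowest were H2bc8 for Mta2 (2.01), H2bc14 for Mbd3 (4.85) and H2bc7 for Zbtb7a (2.16). The H2bc12 Mta2 summit lay at -989 bp from its start, in a peak shared with H2ac12.

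H1 genes, which encode the linker histones, had the smallest share of occupied genes and, with those outside the clusters included, the highest medians of the types. Each factor was present at 7 of 10, near the shares over all protein-coding genes of 77.7% (Mta2), 76.5% (Mbd3) and 76.0% (Zbtb7a). Median folds were 14.8 (Mta2), 18 (Mbd3) and 7.82 (Zbtb7a). Within Hist1 each factor was present at 4 of 6, with medians of 10.7, 13.2 and 6.53, and there the Mbd3 median of H4 genes was higher, at 14.2. In that cluster H1f4, a main somatic subtype, had folds of 14.85, 29.0 and 7.82 in the Mta2, Mbd3 and Zbtb7a lists. H1f2 had 12.0, 18 and 10.9, and its summits lay 837 to 1019 bp after its start, beyond the gene. H1f3 had a Zbtb7a fold of 3.6 and H1f1 a Mta2 fold of 6.67, the lowest of the type in those lists. Outside the clusters H1f0, the linker histone that builds up in cells that stop dividing, carried folds of 28.9, 26.15 and 24.5. The summits of those strongest peaks lay within 128 bp of an end of the neighbouring gene Gcat. The Mta2 peak was 5856 bp wide and covered the whole of H1f0. Further Mbd3 and Zbtb7a summits, with folds of 20.9 and 21.1, lay 240 and 259 bp after the H1f0 start. H1f10 carried 17.7, 9.37 and 4.31, with summits at -164 (Mta2), -203 (Mbd3) and -187 bp (Zbtb7a) from its start. H1f7 was the highest histone gene for Mta2 (52.6, percentile 99.0 of occupied genes) and Zbtb7a (40.5, percentile 92.3), and had a Mbd3 fold of 48.2 (percentile 98.7). Its summits lay 784 to 806 bp after the start, inside the gene, and no other protein-coding gene lay within 1 kb of them.

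**Figure D2:**
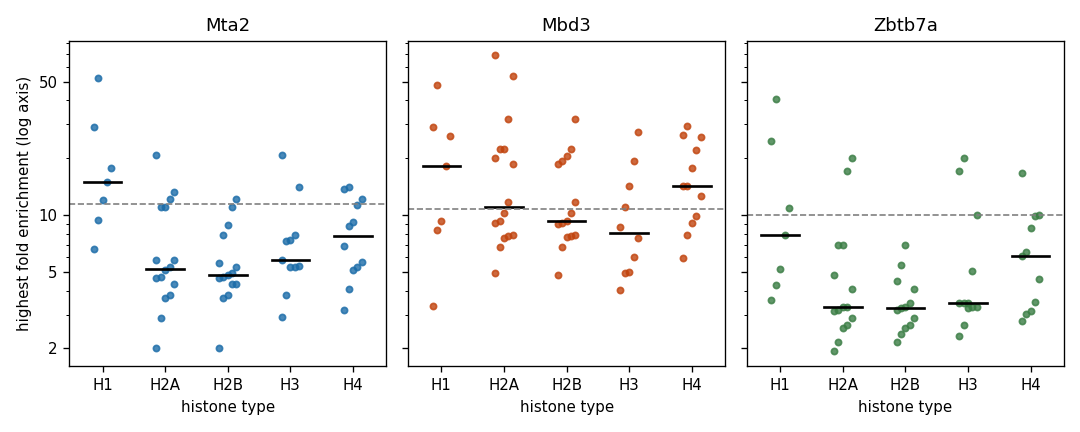
Points are occupied histone genes of each type, with the highest fold enrichment of a peak assigned to the gene on a log axis, 1 panel per factor. Black lines are medians over genes and the dashed line is the median over other occupied genes of 2 kb or less (11.5, 10.8 and 10.0 for Mta2, Mbd3 and Zbtb7a); H2A, H2B, H3 and H4 medians lie below it in the Mta2 and Zbtb7a panels.

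The Hist2 cluster held higher folds than the Hist1 cluster in each list. Its 10 genes lie within 50.3 kb (chr3:96219885-96270192), and Mta2 and Mbd3 were present at 9 and Zbtb7a at 10. Medians over occupied genes were 11 for Mta2, against 5.33 in Hist1. They were 22.2 for Mbd3, against 9.25 in Hist1, and 7.76 for Zbtb7a, against 3.28 in Hist1. The lowest Mbd3 fold of an occupied Hist2 gene was 19.35, at H3c13 and H2bc18, which stands at percentile 64.6 of occupied genes. H2ac18 and H2ac19 reached Mbd3 folds of 69.0 and 53.85, at percentiles 99.9 and 99.3, with −log10 q of 2550 and 2730. The summits lay at -132 and -65 bp from their starts. In the other lists the strongest peaks near H2ac18 stood at percentile 63.9 (Mta2) and 61.7 (Zbtb7a), and those near H2ac19 at 35.8 and 52.9. The strongest H2ac18 summits in these lists lay before the H3c14 start. Further summits lay before the H2ac18 start itself, at -150 bp (Mta2, fold 18.8) and -163 bp (Zbtb7a, fold 11.9). The H2ac19 Zbtb7a summit lay 1119 bp after its start and at -128 bp from the H3c15 start. Of the 50-letter words in the tabulated letters around each of the H2ac18 and H2ac19 starts, 67.7% also stood at another tabulated start. For H3c14 and H3c15 the share was 74.1%. How the authors placed reads that match several copies is not given in the sources used here, and its part in these folds was not tested. The 11 histone genes with such repeated words had a median Mbd3 fold of 18.5, against 9.37 in the 51 without. Their medians were 5.12 for Mta2, against 5.68, and 3.32 for Zbtb7a, against 3.44.

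Within Hist1, which spans 2220 kb of chromosome 13, gaps of over 100 kb between histone genes set 4 blocks apart. Block A (chr13:21715711-21833475, 17 genes) had the lowest medians, 4.35 (Mta2), 7.77 (Mbd3) and 3.14 (Zbtb7a), with Zbtb7a at 13 of 17 genes and a highest Zbtb7a fold of 3.51. Block B (chr13:22035122-22043658, 5 genes) carried every factor at all 5 genes, with medians of 8.74, 11.7 and 4.09. Block C (chr13:23531044-23764412, 29 genes) carried Mta2 at 28, Mbd3 at 26 and Zbtb7a at 27, with medians of 5.70, 10.3 and 3.6. Block D, the pair of testis genes H2bc1 and H2ac1 (chr13:23933725-23934913), had no summit of any factor. Each of the 3 lists thus held its highest cluster median in Hist2 and, of the occupied Hist1 blocks, its lowest in block A.

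**Figure D3:**
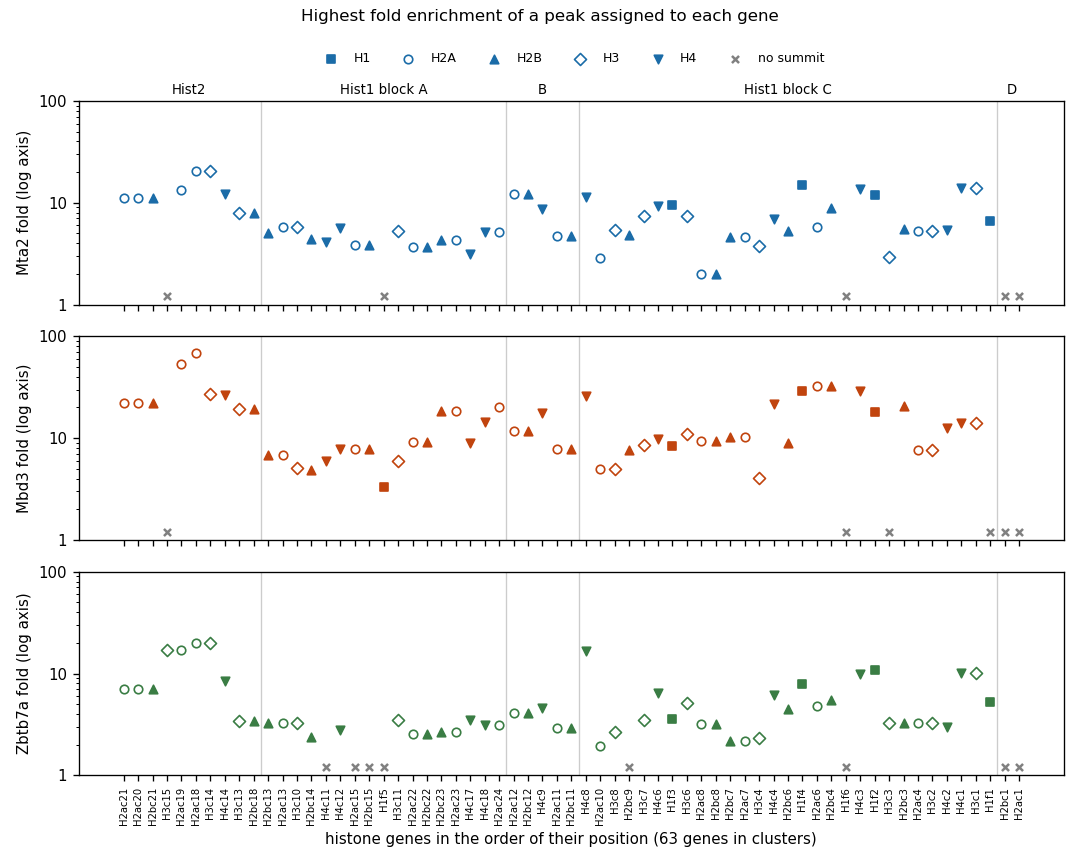
Each column is 1 of the 63 histone genes in the clusters in order of position, and the points give the highest fold enrichment of an assigned peak on a log axis, with marker shape for the histone type and grey crosses for genes without a summit. Hist2 genes at the left reach 69.0 in the Mbd3 panel, block A stays at or below 3.51 in the Zbtb7a panel, and block D has crosses only.

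Histone genes without any summit were H1f6, H1f8, H2bc1 and H2ac1, and the products of all 4 are known from germ cells. Distances to the nearest summit were 1042 bp (Mta2), 1768 bp (Mbd3) and 1005 bp (Zbtb7a) for H1f6, so that its Mta2 and Zbtb7a summits lay just past the 1 kb limit. For H1f8 they were 4113 to 4128 bp. For H2bc1 they were 2520 bp (Mta2), 2578 bp (Mbd3) and 4719 bp (Zbtb7a), and for H2ac1 3232, 3290 and 3962 bp. H1f7, also a germ cell gene, is the exception, with a summit in each list.

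Some but not all factors were present at 8 genes. Zbtb7a was missing from H4c11, H2ac15, H2bc15 and H2bc9, with its nearest summits 12810, 3006, 3705 and 1245 bp away. H1f5 had a single weak Mbd3 peak (fold 3.32) and its nearest Mta2 and Zbtb7a summits lay 2621 and 2612 bp away. For the rest the missing summit belonged to a wide peak that still covered the gene. The Mbd3 interval with its summit 2283 bp from H1f1 (fold 14.2) and that with its summit 1056 bp from H3c3 (fold 20.5) overlapped those genes. H3c15 had a Zbtb7a summit (fold 17.0) at -128 bp from its start, while the Mta2 and Mbd3 intervals that cover it had their summits 1321 and 1312 bp away, before the H2ac19 start.

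Direction could be read at the 62 genes with an entry in the promoter table. A summit lay within 500 bp of a RefSeq start at 48 of them for Mta2 (77.4%, against 62.8% of all protein-coding genes with an entry). For Mbd3 it was 50 (80.6%, against 61.9%) and for Zbtb7a 47 (75.8%, against 62.1%). All 11 H4 genes with an entry had Mta2 and Mbd3 there and 9 had Zbtb7a. H1 genes had a summit at the start least often, with Mta2 at 3, Mbd3 at 4 and Zbtb7a at 5 of 10.

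Nearest summits fell at different places in different types. At H2B genes they lay before the start at 11 of 12 genes for Mta2, 12 of 12 for Mbd3 and 7 of 10 for Zbtb7a, with medians of -278, -136 and -388 bp. A summit shared by a divergent H2A and H2B pair is counted at both genes. The Zbtb7a summit at -564 bp from the H2bc8 start, for example, lies 384 bp after the H2ac8 start. The H2B medians thus include summits on the H2A side and are not separate from the H2A places. At H3 genes nearest summits lay at or after the start at 8 of 9 for Mta2, 6 of 8 for Mbd3 and 6 of 10 for Zbtb7a. Of these, 6 Mta2, 4 Mbd3 and 4 Zbtb7a summits fell 100 to 250 bp after it, inside the gene. At H3c2 they lay 194, 177 and 155 bp after the start, at H3c4 176, 179 and 165 bp, at H3c10 174, 150 and 150 bp, and at H3c11 151, 162 and 160 bp for Mta2, Mbd3 and Zbtb7a. The peaks with these summits had folds of 3.79 to 5.78 for Mta2, 4.05 to 6.01 for Mbd3 and 2.32 to 3.46 for Zbtb7a. This place was not limited to H3. At H2A genes 5 of 16 Mta2, 3 of 16 Mbd3 and 7 of 15 Zbtb7a nearest summits fell 100 to 250 bp after the start. The H2A medians were 81, -65 and 172 bp in the same order. H4 summits were close to the start, with medians of 23 bp (Mta2), -36 bp (Mbd3) and 73 bp (Zbtb7a). Over all histone genes whose nearest summit lay within 1 kb, 28.3% of Mta2, 15.7% of Mbd3 and 33.3% of Zbtb7a summits fell 100 to 250 bp after the start. Over all protein-coding genes counted in the same way these shares were 6.17%, 6.42% and 7.58%. H3 coding sequences are close to identical between genes, and how reads within them were placed is not given in the sources used here.

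**Figure D4:**
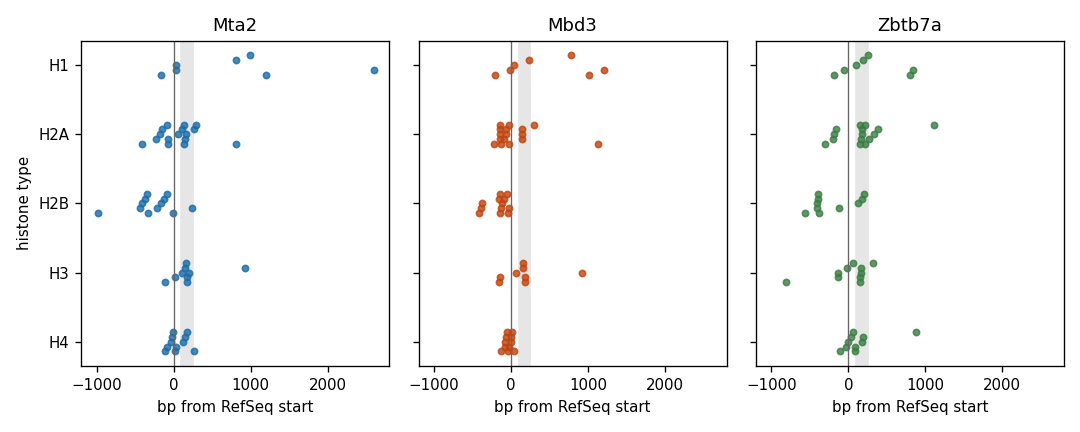
Points are histone genes with a single RefSeq start, placed by the distance in bp of the nearest summit from the start (negative before it), by histone type and factor. The grey band covers 100 to 250 bp after the start, where 6 of 9 H3 genes lie for Mta2 and 7 of 15 H2A genes for Zbtb7a. H2B points lie mostly left of 0. A summit nearest to both an H2A and an H2B gene is drawn for each.

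The table gave 9 pairs of an H2A and an H2B gene transcribed away from each other, with 163 to 280 bp between the starts. Genes without an entry could not be paired. Such genes were H2bc21 and H2bc4, which shares a Mbd3 peak of fold 32.15 with H2ac6. A peak served both genes at 8 of the pairs for Mta2, 8 for Mbd3 and 7 for Zbtb7a. H2bc1 and H2ac1 had no peak of any factor, and H2ac15 and H2bc15 had none of Zbtb7a. The Mbd3 summit lay between the starts at 6 of 8 pairs and on the H2A side at 2. The Mta2 summit lay on the H2A side at 6, on the H2B side at 1 and between the starts at 1. The Zbtb7a summit lay on the H2A side at 6 and on the H2B side at 1. Among these 9 pairs H2bc23 and H2ac23 had the highest Mbd3 fold (18.5). There the Mbd3 summit stood at -20 bp and the Mta2 summit (fold 4.32) at -79 bp from the H2ac23 start, in the stretch printed above. The Zbtb7a summit (fold 2.66) lay 223 bp after that start. Of the 9 pairs, H2ac12 and H2bc12 had the highest Mta2 fold (12.2), with a Mbd3 fold of 11.7 and a Zbtb7a fold of 4.095. That Mta2 summit was not between the starts. It lay 811 bp after the H2ac12 start, beyond the gene, and at -989 bp from the H2bc12 start.

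Peaks of the 3 factors mostly overlapped at the same gene. At the 59 genes with Mta2 and Mbd3 the strongest peaks shared at least 1 bp at 52 (88.1%, against 90.4% over all genes with both). For Mta2 and Zbtb7a this was 50 of 57 (87.7%, against 84.7%), and for Mbd3 and Zbtb7a 49 of 55 (89.1%, against 85.7%). Sharing of at least 50% of each interval was found at 79.7% of histone genes for Mta2 and Mbd3, against 86.2% over all genes. It was found at 45.6% for Mta2 and Zbtb7a, against 78.9%, and at 40.0% for Mbd3 and Zbtb7a, against 82.3%. The summits themselves were within 100 bp at 64.4%, 57.9% and 45.5% of histone genes for these pairs of factors, against 85.1%, 74.3% and 75.4% over all genes. Ranks of the folds were compared across histone genes as a description, over points that share peaks and libraries. Spearman's rho was 0.647 for Mta2 and Mbd3 (59 genes, 47 distinct pairs of peaks), against 0.936 over all genes. It was 0.868 for Mta2 and Zbtb7a (57 genes), against 0.850, and 0.683 for Mbd3 and Zbtb7a (55 genes), against 0.855. The strongest peaks had median widths of 1017 bp for Mta2, against 1095 bp at other genes. They were 1113 bp for Mbd3, against 983 bp at other genes, and 575 bp for Zbtb7a, against 968 bp.

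The letters before the starts differed by histone type. Windows of divergent H2A and H2B genes overlap, so that a single site can count for both. CCAAT was found before 17 of 17 H2A starts, 15 of 15 H2B starts and 8 of 10 H3 starts, but before 3 of 11 H4 starts, against 35.6% of all 21045 starts of protein-coding genes. Of H2B starts 15 of 15, and of H2A starts 16 of 17, held it more than once. TATAAA was found before 28 of 63 histone starts (44.4%, against 11.7% of all starts). ATTTGCA was found before 7 of 15 H2B and 6 of 17 H2A starts and before none of the H1, H3 and H4 starts, against 3.43% of all starts. These 13 hits lie at 10 positions, 3 of which stand in the windows of both H2ac12 and H2bc12, H2ac8 and H2bc8, or H2ac1 and H2bc1. For CCAAT, 136 hits lie at 105 positions, 31 of them in windows of both genes of a pair. AAACACA was found before 5 of 10 H1 starts, against 5.50% of all starts. GACCC was found before 13 of 63 histone starts (20.6%, against 41.6% of all starts), most often in H4 (4 of 11). H4c8, H2ac18, H2ac19 and H3c14 each hold it once, and H3c15 and H1f0 hold it 2 times. H1f7, the highest histone gene for Zbtb7a, does not hold it. The strongest Zbtb7a summits assigned to H2ac18 and H2ac19 lie before the H3c14 and H3c15 starts. Any relation of GACCC to Zbtb7a folds was not tested. The 250 bases had a median GC content of 45.2% over histone starts, against 55.6% over all starts. The part of base composition in the count of GACCC was not tested. Motif letters were also found before the 4 genes without a summit, with CCAAT at 4 genes, TATAAA at 2, ATTTGCA at 2, AAACACA at 3 and GACCC at 1. Since H2bc1 and H2ac1 share most of their windows, these are 7 positions of CCAAT, 2 of TATAAA, 1 of ATTTGCA, 2 of AAACACA and 1 of GACCC.

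**Figure D5:**
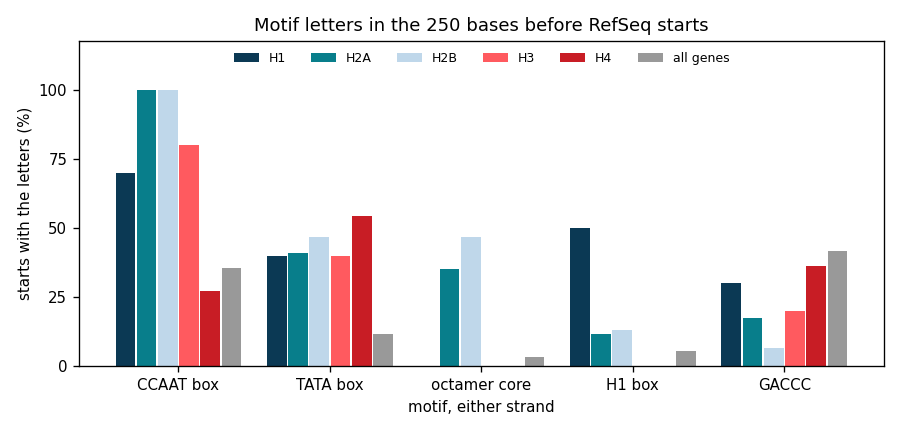
Bars give the percentage of RefSeq starts whose 250 preceding bases hold the letters of a motif on either strand, by histone type and for all starts of protein-coding genes. CCAAT stands at 100.0% for H2A and H2B and at 27.3% for H4, against 35.6% of all starts, and the octamer letters occur in H2A and H2B only among histone types.

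Other genes inside the span of Hist1 differed by kind. Of 50 that are not histone genes, 11 carried Mta2, 11 Mbd3 and 10 Zbtb7a. The 36 vomeronasal receptor genes among them carried no summit, and without them the counts were 11, 11 and 10 of 14. No peak was shared with a histone gene. The kidney transporter genes Slc17a1 and Slc17a3, which lie between blocks C and D, had Mta2 folds of 27.0 and 26.7, Mbd3 folds of 21.75 and 27.7 and Zbtb7a folds of 16.2 and 19.8. The iron regulator gene Hfe, 3576 bp from the nearest histone gene, had 10.2, 11.95 and 10.3.

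Genes that act on histone supply, from lists chosen by function, carried all 3 factors throughout. These were 19 of 19 genes of histone transcription and processing, 12 of 12 histone chaperone genes and 9 of 9 replication-independent histone variant genes, against 74.7% of all protein-coding genes. Median folds in the first list were 20.7 (Mta2), 19.7 (Mbd3) and 22.8 (Zbtb7a), in the second 21.7, 17.2 and 20.3, and in the third 19.1, 19 and 24.4. Over all occupied protein-coding genes the medians were 16.8, 15.4 and 16.2. The lists were not matched to other genes by length. Npat, the coactivator of the histone clusters, had folds of 14.8, 13.4 and 11. Slbp, which binds the stem-loop of histone transcripts, had 12.4, 10.9 and 16.3. The highest Zbtb7a folds were 44.7 at Ccne1, the cyclin E gene, 37.15 at the variant gene H2az2 and 35.5 at Pou2f1, whose product binds the octamer. The lowest Zbtb7a fold of a variant gene was 6.25, at H2ax.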

How the data were processed

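Chromatin immunoprecipitation with sequencing of kidney cortex used crosslinking with 2 mM disuccinimidyl glutarate and 1% formaldehyde, shearing to 100 to 1000 bp and paired-end sequencing, per the labels' protocols. Depth per library was not analysed here. The submitters' processing notes name mm10, MACS2, Bowtie2, bedtools and deepTools, with versions and settings not given in the sources used here. Each deposited peak list holds an interval, the authors' fold enrichment (a ratio at the summit), the deposited −log10 q and the deposited summit offset, which gave the other value used here, the summit position. At which step the mice were merged is not given in the sources used here.

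Summits were assigned to RefSeq genes of GRCm38.p6, which shares coordinates with mm10, within the gene or 1 kb of it (Python 3.11.15, pandas 2.3.3). Assignment was tested on simulated peaks. Starts and strand came from the promoter table. With 1 list per factor no test between samples was possible.

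The genes, lists and rules were chosen with earlier results of these data known. Genes named are the highest and lowest of each type, those lacking factors and the 5 highest for Mta2 and Zbtb7a. Also named are, among the 9 H2A and H2B pairs with both starts known, those with the strongest shared peaks. So are the pathway genes of highest Zbtb7a fold and the histone genes outside the clusters. The copies H4c17 and H4c18, the H3 genes with summits after the start, H2ac19, H1f2, Npat, Slbp, Hfe and the Slc17a genes were named after their values were seen.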

Additional observations from a re-analysis of the deposited data

How the results depend on the processing

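The counts by factor, type and cluster stayed within 1.5 times of those reported with windows of 0.5 kb, with gene ends only, with peak intervals in place of summits and with synonyms. So did the counts over all types without the H1 genes outside the clusters, while each factor was then at 4 H1 genes in place of 7. With windows of 3 kb, 2 genes were without a summit. With peaks of at least 5-fold, Zbtb7a was present at 21 genes, all 3 factors at 19 and none at 9. A further 10 counts of Mta2 or Zbtb7a by type or cluster fell by over 1.5 times with peaks of at least 5-fold or where −log10 q was 10 or more. Median folds for Mta2, Mbd3 and Zbtb7a were 5.58, 10.3 and 3.46 with 0.5 kb, 7.36, 14.2 and 4.09 with 3 kb, and 5.80, 11 and 4.97 where −log10 q was 10 or more. Counting each peak once gave 11 for Mbd3 and 4.09 for Zbtb7a. Requiring 50% of each interval left 26 overlapping genes for Mta2 and Zbtb7a and 22 for Mbd3 and Zbtb7a, and summits within 100 bp left 33 and 25. Added after seeing the data were the counts for genes of 2 kb or less and those at RefSeq starts given above. Also added, the 51 genes without a repeated 50-letter word gave 46, 45 and 43 genes with Mta2, Mbd3 and Zbtb7a. No paired analysis was possible because each list pools both mice, and for the same reason no replicate could be left out. Absence of a summit means only that no peak passed the threshold of the deposited list.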

Other observations

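Histone genes that fit the rule only through an older name were H2bu2, H2aw, H4bc24 and H4f16, and all 3 factors were present at each of the 4. H2aw and H2bu2, the genes of the former Hist3 cluster on chromosome 11, had Mta2 folds of 9.59 and 3.65, Mbd3 folds of 16.65 and 3.95 and Zbtb7a folds of 8.115 and 2.215. H4f16, an H4 gene on chromosome 6 away from the clusters, had folds of 11.9, 19.3 and 6.11 in the Mta2, Mbd3 and Zbtb7a lists.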
